A study of Homo sapiens with 6 samples.

Results

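The vacuolar proton pump (V-ATPase) and the cathepsins were examined as 39 genes out of the 58735 in a deposited expression table. They are the protein-coding genes whose GENCODE symbol starts with ATP6V (24 genes) or is CTS followed by 1 letter (15 genes). Of the 24 ATP6V symbols, 9 encode subunits of the membrane sector V0 and 13 encode subunits of the cytosolic sector V1. The other 2, ATP6V1FNB and the read-through gene ATP6V1G2-DDX39B, carry the symbol as a neighbour and as a fusion of adjacent genes. The cells were C4-2B MDVR, grown from C4-2B, a human prostate cancer line, and resistant to enzalutamide, so every value comes from a single cell line grown in culture. They were treated for 2 days with PTUPB, which inhibits both COX-2 and the soluble epoxide hydrolase, with enzalutamide, an antiandrogen, or with both. The 6 libraries were PTUPB at 0, 10 and 20 uM with enzalutamide and PTUPB at 0, 10 and 20 uM without it. The library with neither drug was labelled DMSO. The enzalutamide dose, 20 uM, is labelled only on the library without PTUPB, and an equal dose in the 2 combinations was assumed.

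The V-ATPase is a rotary machine. Its V1 sector burns ATP in the cytosol and turns a central stalk, which drives a ring of proteolipid subunits in the membrane-bound V0 sector past subunit a and moves protons into the lysosome, endosome or Golgi lumen. The pump can be switched off by releasing V1 from V0. Cathepsins are the proteases of that acid lumen: most are cysteine proteases of the papain family, cathepsin D and cathepsin E are aspartic proteases, and cathepsin A and cathepsin G are serine enzymes. They are made as inactive precursors, sorted to lysosomes largely through mannose 6-phosphate tags, and matured at low pH. TFEB, TFE3 and MITF, transcription factors of the same family, bind an E-box variant that is common in promoters of lysosomal genes.

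Promoter sequence was available from RefSeq (GRCh38.p14, 250 bases before to 50 after each annotated start) for 26 of the 39 members, 16 of the pump and 10 cathepsins, in 33 windows. No window was used for ATP6V0D2, ATP6V0E1, ATP6V1A, ATP6V1B2, ATP6V1C1, ATP6V1E2, ATP6V1FNB, ATP6V1H, CTSB, CTSK, CTSO, CTSS and CTSW. The palindromic E-box CACGTG stood in 8 of the 33 windows (24.2%) and in 2548 of all 35116 windows of that length (7.26%). The longer M-box TCACGTG, which overlaps the E-box and was searched on both strands, stood in 8 of the 33 windows and in 3.71% of all windows. Both motifs were found in the same 7 genes: ATP6V0B, ATP6V0D1, ATP6V0E2, ATP6V1G1, CTSA, CTSD and CTSF. Overlapping windows of ATP6V0E2 hold the same E-box, which is thus counted more than once among the 8 windows of each motif. Stretches around the E-box of 4 of them follow: ATP6V0E2 because it is the only 1 of the 7 that passed the test at 20 against 0 uM PTUPB, and ATP6V0B, CTSA and CTSD for the letters shared between pump and protease genes. They lie at chr7:149872879-149872918 (plus strand, ATP6V0E2), chr1:43974886-43974943 (plus strand, ATP6V0B), chr20:45891276-45891332 (plus strand, CTSA) and chr11:1763952-1763991 (minus strand, CTSD), run 5′ to 3′, and have the E-box in capitals.
ATP6V0E2: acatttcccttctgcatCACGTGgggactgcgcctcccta
ATP6V0B: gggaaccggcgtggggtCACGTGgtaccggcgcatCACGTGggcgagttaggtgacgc
CTSA: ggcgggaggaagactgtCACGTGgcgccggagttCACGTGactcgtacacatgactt
CTSD: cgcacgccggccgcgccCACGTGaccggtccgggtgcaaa
The E-box of CTSD begins 47 bases before the start site, and the 2 of ATP6V0B begin 57 and 39 bases before it. Those of CTSA begin 42 and 25 bases before the start. A match of letters is a description of the window only.

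The libraries held 20156523 to 29450436 fragments, recovered from the deposited FPKM (fragments per kilobase of exon, scaled to library depth), and both 20 uM PTUPB libraries were the shallowest. No treatment was sequenced more than once, so values set side by side for 2 libraries carry no replicate error. Tests were made with limma over all 6 libraries on log2(FPKM + 1), for the 12960 genes with a mean of at least 1 FPKM. The p-values rest on how far the libraries depart from additive drug effects, not on the spread of replicates. Effects are given as log2 differences on that scale with their standard error (SE), which understates the change of low genes. Prostate luminal markers summed to 241.6 to 1165 FPKM, and 8 of 10 fell at 20 uM PTUPB while KRT8 and KRT18 did not pass the test. Of those that fell, KLK3 and KLK2 were below 1 FPKM at 20 uM. Both passed the level filter only through their 0 and 10 uM libraries. None of 10 macrophage and blood markers and none of 6 osteoclast markers reached 1 FPKM in any library; TYROBP, OCSTAMP and DCSTAMP held 0 fragments. Summed over the list, macrophage and blood markers held 0.669 and 0.648 FPKM at 20 uM PTUPB with and without enzalutamide, against 0.290 to 0.768 FPKM in the other 4 libraries. Osteoclast markers summed to 0.740 and 1.65 FPKM at 20 uM and to 0.892 to 1.41 FPKM elsewhere, and stromal and endothelial markers, of which COL1A1 rose, to 6.65 and 4.75 FPKM at 20 uM and 3.84 to 4.51 FPKM elsewhere. The part of these markers in the results was not tested. In bulk RNA, fewer cells of a kind and less RNA per cell cannot be told apart.

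Of the 39 members, 28 passed the level filter: 7 V0 genes, 9 V1 genes, ATP6V1FNB and 11 cathepsins. Per kilobase, the highest mean levels over the 6 libraries were those of ATP6V1F (164 FPKM), which encodes a small subunit of the rotor stalk, and CTSZ (91.5 FPKM), a carboxypeptidase. ATP6V0E1 (73.1 FPKM), ATP6V0B (63.0 FPKM) and ATP6V1E1 (55.3 FPKM) followed among pump genes, and CTSL (52.3 FPKM) and CTSB (42.6 FPKM) among cathepsins. At the other end of the tested pump genes stood ATP6V1E2 (2.22 FPKM), ATP6V0A2 (3.13 FPKM) and ATP6V0C (5.14 FPKM), and of the cathepsins CTSK (1.39 FPKM) and CTSO (1.76 FPKM). The rank of ATP6V0C is uncertain, since 72.1% of its exon bases lie in other genes. Over the 6 libraries ATP6V1B2 moved least, with a highest level 1.24 times its lowest, and CTSK most.

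**Figure D1:**
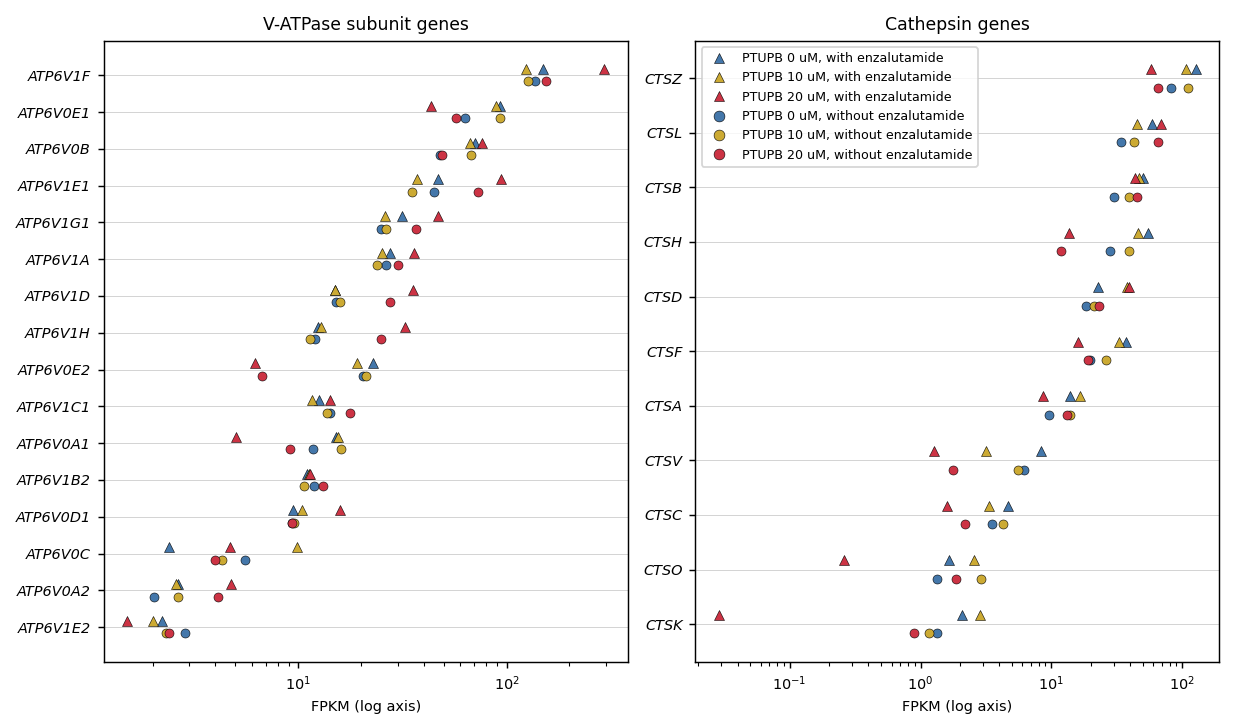
Level of each V-ATPase subunit gene (left) and cathepsin gene (right) with a mean of at least 1 FPKM, on a log axis in FPKM, sorted by mean; triangles are libraries with enzalutamide, circles without, and colours give the PTUPB dose. Both 20 uM points (red) lie to the right of the others for ATP6V1A, ATP6V1D, ATP6V1E1, ATP6V1F, ATP6V1G1, ATP6V1H, ATP6V0A2 and CTSL. They lie to the left for ATP6V0A1, ATP6V0E1, ATP6V0E2, CTSC, CTSF, CTSH, CTSK, CTSV and CTSZ. Some of these gaps are narrow, as for ATP6V1F and CTSF.

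With 20 uM PTUPB against 0, 3 mRNAs of the V1 sector rose, while of the V0 sector ATP6V0A2 rose and ATP6V0E2 fell. Of 9 tested V1 genes 3 rose, 0 fell and 6 did not pass, with a median effect of 0.55, and of 7 tested V0 genes 1 rose, 1 fell and 5 did not pass, with a median of 0.07. Over all 17 tested ATP6V symbols 4 rose, 1 fell and 12 did not pass (median 0.23), beside 15.9% of all 12960 genes that rose and 18.2% that fell (median 0.0045). The V1 median was above 0 under each scaling and in each fit that left out a library. The V0 median changed sign, to -0.27 with genes of at least 5 FPKM, and to -0.23, -0.11 and -0.05 without the enzalutamide library, the 20 uM combination and the control. No member was called at 10 uM PTUPB against 0, where limma called 0% of all genes and 480 of them had an unadjusted p under 0.05.

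ATP6V1H encodes the regulatory subunit of V1, which couples ATP use to pumping and restrains free V1. It stood at 12.4, 12.8 and 32.4 FPKM at 0, 10 and 20 uM PTUPB with enzalutamide and at 12.1, 11.3 and 25.1 FPKM at those doses without it. Both 20 uM libraries were above the other 4, and the 0 and 10 uM libraries lay close together. The level at 20 uM was 2.61-fold higher than at 0 with enzalutamide and 2.07-fold higher without it (log2 effect 1.16, SE 0.18, limma adjusted p = 0.00851). ATP6V1D, a core piece of the rotor stalk (chromosome 14, 67294371 to 67360265, GENCODE 29 on GRCh38), stood at 14.9, 15.0 and 35.5 FPKM with enzalutamide and at 15.2, 15.9 and 27.4 FPKM without it. Again the 2 libraries at 20 uM lay above all others, 2.37-fold and 1.81-fold over the matched libraries without PTUPB (1.00, SE 0.19, limma adjusted p = 0.0149). It shares 6.33% of its exon bases with EIF2S1 on the opposite strand, and no source used here says whether reads were counted by strand.

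ATP6V1E1 encodes a stalk of the stator that keeps the motor from turning with its rotor (chromosome 22, 17592136 to 17628818). Its levels were 46.95, 37.1 and 94.1 FPKM with enzalutamide and 44.9, 35.3 and 73.3 FPKM without it. The 10 uM libraries were the lowest of both series and the 20 uM libraries the highest, with folds over 0 uM of 2.00 and 1.63 (0.84, SE 0.19, limma adjusted p = 0.024). Leaving out the control library took the adjusted p to 0.0610 for ATP6V1H, 0.0948 for ATP6V1D and 0.14 for ATP6V1E1, and leaving out the enzalutamide library took it to 0.12, 0.167 and 0.233. ATP6V1E1 also missed the threshold without either 10 uM library (adjusted p = 0.0545 without the PTUPB library, 0.0549 without the combination). Such fits have 1 residual degree of freedom.

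ATP6V1F was the most abundant pump mRNA, at 149.5, 124 and 293 FPKM with enzalutamide and 136, 127 and 155 FPKM without it. Only the combination at 20 uM stood well apart. The effect did not pass (0.58, SE 0.30, limma adjusted p = 0.182), with a fold of 1.96 with enzalutamide and 1.14 without it. It shares 23.7% of its exon bases with KCP on the opposite strand, which was listed at 1.27, 1.48 and 1.65 FPKM with enzalutamide and 1.30, 1.36 and 3.28 FPKM without it. ATP6V1G1, the stator partner of subunit E, was at 31.5, 26.0 and 46.9 FPKM with enzalutamide and 25.0, 26.4 and 36.8 FPKM without it. Its 20 uM libraries were the highest, but the difference from 0 did not pass (0.55, SE 0.19, limma adjusted p = 0.0748).

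The remaining V1 genes differed less. The catalytic subunit gene ATP6V1A ranged from 23.9 to 36.1 FPKM, with an effect of 0.27 (SE 0.18) that did not pass. Its partner in the catalytic head, ATP6V1B2, stood at 11.0, 11.3 and 11.4 FPKM with enzalutamide and 11.96, 10.6 and 13.2 FPKM without it (effect 0.09, SE 0.17, not passed). ATP6V1C1, whose product ties the stator to V0 and is a point of release of the sector, stood at 12.6, 11.7 and 14.2 FPKM with enzalutamide and 14.2, 13.8 and 17.8 FPKM without it (effect 0.23, SE 0.16, not passed). For both genes the 20 uM library was the highest of each series, and the libraries overlapped across doses. ATP6V1E2, the second gene for subunit E, was at 2.22, 2.02 and 1.52 FPKM with enzalutamide and 2.86, 2.31 and 2.40 FPKM without it, and its effect of -0.27 (SE 0.20) did not pass.

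**Figure D2:**
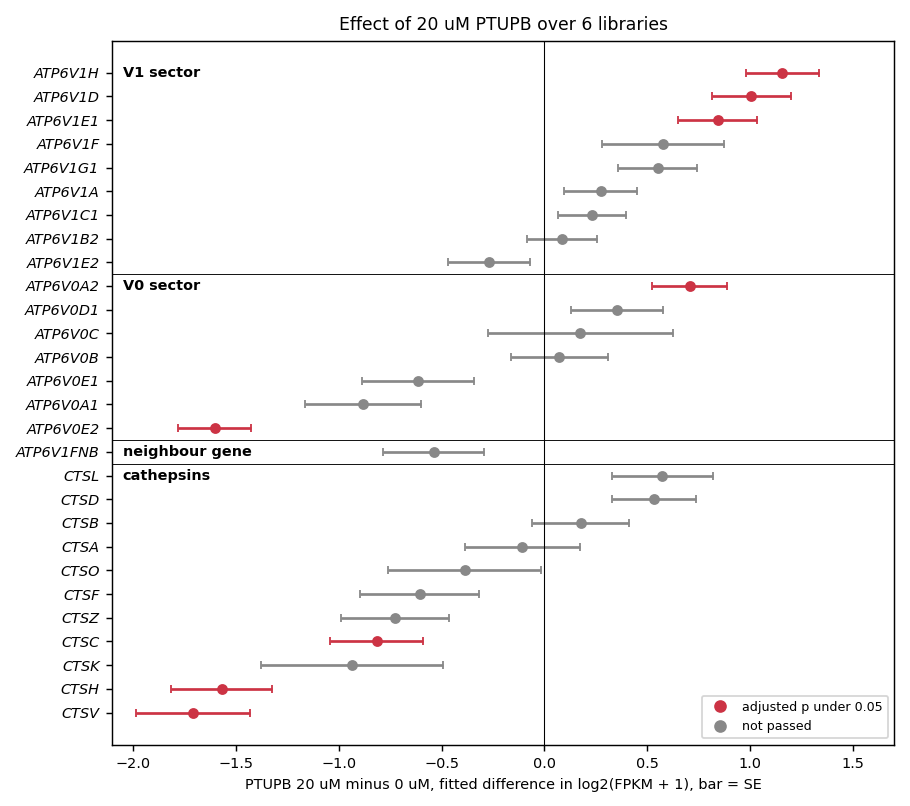
Fitted difference between 20 and 0 uM PTUPB in log2(FPKM + 1) for the 28 tested members, over 6 libraries, with bars of 1 SE; red points have a limma adjusted p under 0.05. The 3 red points of the V1 sector lie between 0.84 and 1.16, ATP6V0A2 lies at 0.71, and the 4 red points on the left are ATP6V0E2, CTSC, CTSH and CTSV.

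Within V0, ATP6V0E1 and ATP6V0E2 encode the small membrane subunit e. ATP6V0E2 (chromosome 7, 149872968 to 149891204) was at 22.9, 19.1 and 6.18 FPKM with enzalutamide and 20.4, 21.3 and 6.74 FPKM without it. Both 20 uM libraries lay under 7 FPKM and the other 4 above 19 FPKM. It was 3.71-fold lower with enzalutamide and 3.03-fold lower without it (effect -1.60, SE 0.18, limma adjusted p = 0.00419), and without the enzalutamide library the adjusted p was 0.0661. Of its exon bases 19.7% are shared with other genes, among them ATP6V0E2-AS1 on the opposite strand, listed at 3.34, 3.82 and 2.80 FPKM with enzalutamide and 2.26, 1.98 and 2.80 FPKM without it. ATP6V0E1, the broadly expressed form, was at 92.6, 88.9 and 43.2 FPKM with enzalutamide and 63.4, 93.5 and 57.0 FPKM without it. The 20 uM library was the lowest of each series, 2.14-fold and 1.11-fold below 0, and the effect did not pass (-0.62, SE 0.27, limma adjusted p = 0.133).

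Subunit a carries the path by which protons cross the membrane, and its isoforms place the pump in different compartments. ATP6V0A1 was at 15.2, 15.5 and 5.03 FPKM with enzalutamide and 11.7, 16.1 and 9.13 FPKM without it. The 2 libraries at 20 uM were the lowest, 3.03-fold below 0 uM with enzalutamide and 1.29-fold below it without, and the effect of -0.88 (SE 0.28) did not pass (limma adjusted p = 0.0602). It passed with TPM (-0.91, limma adjusted p = 0.0344), with total fragments as depth, with limma-voom and among genes of at least 5 FPKM. ATP6V0A2, the form known from Golgi and endosomes (chromosome 12, 123712318 to 123761755), went the other way: 2.66, 2.58 and 4.74 FPKM with enzalutamide and 2.03, 2.64 and 4.14 FPKM without it. Its 20 uM libraries were the highest, 1.78-fold and 2.04-fold above 0 (effect 0.71, SE 0.18, limma adjusted p = 0.0333). That call was lost in 5 of the 6 fits that left out a library, with adjusted p of 0.0733 without 10 uM PTUPB, 0.0725 and 0.0604 without the 10 and 20 uM combinations, 0.238 without control and 0.183 without enzalutamide.

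ATP6V0A2 made up 14.8, 14.2 and 48.5% of the summed FPKM of ATP6V0A1, ATP6V0A2 and ATP6V0A4 with enzalutamide and 14.6, 14.1 and 31.2% without it. TCIRG1, which encodes the a3 isoform of lysosomes and of the osteoclast border, has another symbol and so is no member. It was at 11.4, 7.37 and 3.89 FPKM with enzalutamide and 9.03, 7.53 and 2.22 FPKM without it, and fell (-1.49, SE 0.20, limma adjusted p = 0.00654). With TCIRG1 in the sum, the share of ATP6V0A2 was 9.06, 10.1 and 34.7% with enzalutamide and 8.87, 10.1 and 26.7% without it. ATP6V0A4, the a form of kidney, was at 0.0343, 0.0734 and 0 FPKM with enzalutamide and 0.114, 0.041 and 0 FPKM without it, on at most 14 fragments.

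ATP6V0D2 encodes the second form of subunit d, which sits between the rotor and the proteolipid ring and is known from osteoclasts and kidney. Its fragments numbered 0, 4 and 89 at 0, 10 and 20 uM PTUPB with enzalutamide and 2, 5 and 143 at those doses without it, which is 0, 0.0503 and 1.61 FPKM and 0.0222, 0.0562 and 2.01 FPKM. It was near or at 0 in all 4 libraries at 0 and 10 uM and above 1 FPKM in both at 20 uM. Against a floor of 3 fragments per library the level at 20 uM was at least 45.7-fold higher with enzalutamide, and without it 90.5-fold higher than the 2 fragments of control, with a counting interval of 24.6 to 754.2. With a mean of 0.625 FPKM it missed the level filter, and in the fit without that filter (31321 genes) its effect was 1.47 (SE 0.17, limma adjusted p = 0.0419). Of the 6 osteoclast markers, OCSTAMP and DCSTAMP held 0 fragments in every library, while CALCR reached 51 fragments (0.511 FPKM) at 20 uM PTUPB without enzalutamide and lay at 0 to 0.0251 FPKM elsewhere. ACP5 held at most 40 fragments, SIGLEC15 at most 14 and NFATC1 at most 210. The share of ATP6V0D2 in the summed d subunit level reached 9.18% at 20 uM with enzalutamide and 17.7% without it, and was 0 to 0.585% in the other libraries. ATP6V0D1, the ubiquitous form, was at 9.42, 10.5 and 15.9 FPKM with enzalutamide and 9.33, 9.55 and 9.36 FPKM without it. Only the combination at 20 uM was set apart, and the effect of 0.35 (SE 0.22) did not pass.

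**Figure D3:**
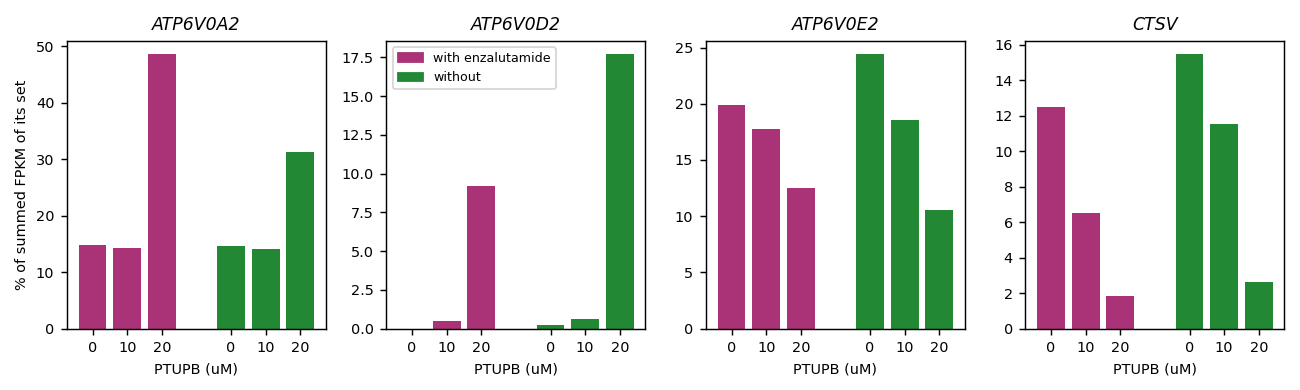
Share of each isoform in the summed FPKM of its set, in percent, by PTUPB dose with enzalutamide (purple) and without it (green): ATP6V0A2 among the ATP6V0A genes (TCIRG1 left out), ATP6V0D2 among subunit d, ATP6V0E2 among subunit e, and CTSV beside CTSL. At 20 uM the shares of ATP6V0A2 and ATP6V0D2 are the highest of each series and those of ATP6V0E2 and CTSV the lowest; each axis has its own scale from 0.

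The proteolipid ring genes held no call. ATP6V0B ranged from 47.8 to 76.4 FPKM (effect 0.07, SE 0.24). ATP6V0C was at 2.39, 9.90 and 4.69 FPKM with enzalutamide and 5.58, 4.31 and 3.98 FPKM without it, with no order by dose (effect 0.17, SE 0.45). The level of ATP6V0C is uncertain, since 72.1% of its exon bases lie in 2 same-strand genes, AC093525.1 and AC093525.2, both listed at 0 in every library. The isoform sets of V1 stayed with 1 gene: ATP6V1B2 held at least 99.8% of the summed B level, ATP6V1C1 at least 96.2% of C, ATP6V1E1 at least 93.9% of E and ATP6V1G1 at least 96.8% of G. Within the e pair, ATP6V0E2 held 19.9, 17.7 and 12.5% with enzalutamide and 24.4, 18.5 and 10.6% without it.

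Summed over genes, the V1 sector was at 309, 266 and 566 FPKM with enzalutamide and 289, 268 and 382 FPKM without it. The V0 sector was at 216, 213 and 158 FPKM with enzalutamide and 160.4, 215 and 141 FPKM without it. The ratio of V1 to V0 was therefore highest at 20 uM in both series: 1.43, 1.25 and 3.59 with enzalutamide and 1.80, 1.25 and 2.70 without it. ATP6V1F weighs heavily in that sum, and without it the ratio was 0.740, 0.667 and 1.73 with enzalutamide and 0.955, 0.656 and 1.60 without it. The V0 sum holds ATP6V0C, whose level is uncertain, and leaves out TCIRG1, which is no member. A ratio within a library does not depend on how libraries are scaled, and it shows unequal change, not which sector changed.

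**Figure D4:**
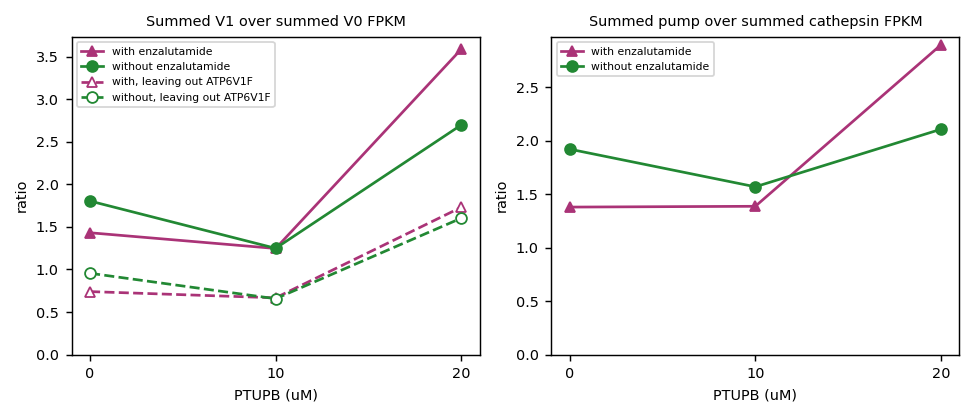
Ratio of summed V1 to summed V0 FPKM (left, dashed lines leaving out ATP6V1F) and of summed pump to summed cathepsin FPKM (right) against PTUPB dose in uM, with enzalutamide (purple triangles) and without it (green circles). The V1 to V0 ratio is highest at 20 uM, 3.59 with enzalutamide and 2.70 without, and the pump to cathepsin ratio is 2.90 and 2.11 there.

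Cathepsin mRNAs that passed the test at 20 uM PTUPB against 0 were all lower. Of 11 tested cathepsins 0 rose, 3 fell and 8 did not pass, with a median effect of -0.61, beside 15.9% and 18.2% of all genes. Those that fell were the cysteine proteases CTSV, CTSH and CTSC. Among the other 8, CTSL, CTSD and CTSB lay above 0. The median stayed below 0 under each scaling, filter and left-out library, at -0.11 among genes of at least 5 FPKM and between -1.03 and -0.18 over the left-out libraries.

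CTSV is a close relative of cathepsin L that is known in humans from thymus and testis (chromosome 9, 97029679 to 97039643). It was at 8.35, 3.16 and 1.28 FPKM with enzalutamide and 6.18, 5.59 and 1.77 FPKM without it. The level was lower at each step of dose in both series, and the 20 uM libraries were the lowest, 6.54-fold below 0 with enzalutamide and 3.50-fold below it without (effect -1.71, SE 0.28, limma adjusted p = 0.00951). CTSL, a broad endopeptidase, was at 58.6, 45.4 and 68.6 FPKM with enzalutamide and 33.8, 42.95 and 64.9 FPKM without it. The 20 uM libraries were the highest, 1.17-fold and 1.92-fold above 0, but the effect did not pass (0.57, SE 0.25, limma adjusted p = 0.125). CTSV thus made up 12.5, 6.50 and 1.83% of the summed level of the pair with enzalutamide and 15.5, 11.5 and 2.65% without it. The 2 genes are close in sequence, so reads may be shared and the split is uncertain.

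CTSH, an aminopeptidase also needed to process surfactant protein in lung (chromosome 15, 78921058 to 78949574), was at 55.2, 46.0 and 13.5 FPKM with enzalutamide and 28.2, 39.3 and 11.8 FPKM without it. The 20 uM libraries were clear of the rest, 4.08-fold below 0 with enzalutamide and 2.39-fold below it without (effect -1.57, SE 0.25, limma adjusted p = 0.0090). CTSC, the dipeptidyl peptidase that activates serine proteases of immune granules (chromosome 11, 88293592 to 88337787), was at 4.63, 3.36 and 1.58 FPKM with enzalutamide and 3.53, 4.25 and 2.19 FPKM without it. Its 20 uM libraries were also the lowest, 2.93-fold and 1.61-fold below 0 (effect -0.82, SE 0.22, limma adjusted p = 0.0393). Without the enzalutamide library the adjusted p was 0.0894 for CTSV, 0.096 for CTSH and 0.353 for CTSC. CTSC was also lost without control (0.0761), without 10 uM PTUPB (0.0678) and without the 10 or 20 uM combination (0.0659 and 0.103).

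Among cathepsins that did not pass, CTSZ was at 126, 107 and 57.5 FPKM with enzalutamide and 82.0, 111 and 65.1 FPKM without it. Its 20 uM libraries were the lowest of all 6, 2.20-fold and 1.26-fold below 0 (effect -0.73, SE 0.26, limma adjusted p = 0.081). It passed with TPM, with total fragments and with limma-voom (limma adjusted p = 0.0389, 0.0406 and 0.0359). CTSF, a cysteine protease of the papain family, was at 37.2, 33.1 and 16.0 FPKM with enzalutamide and 19.6, 26.3 and 18.9 FPKM without it. The level at 20 uM was 2.32-fold below 0 with enzalutamide and 1.03-fold below it without (effect -0.61, SE 0.29, limma adjusted p = 0.158). CTSK, the collagen-degrading protease of osteoclasts, was at 2.06, 2.83 and 0.0289 FPKM with enzalutamide and 1.33, 1.17 and 0.897 FPKM without it. The combination at 20 uM held 1 fragment of CTSK, against 110 with enzalutamide alone, a 71.5-fold lower level with a counting interval of 12.6 to 2847, and the effect over 6 libraries did not pass (-0.94, SE 0.44, limma adjusted p = 0.155).

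The other 4 tested cathepsins did not pass either. CTSO, a little characterised cysteine protease, was at 1.65, 2.56 and 0.258 FPKM with enzalutamide and 1.32, 2.89 and 1.86 FPKM without it (effect -0.39, SE 0.37). CTSB, which also trims dipeptides from protein ends, ranged from 30.3 to 50.3 FPKM (effect 0.18, SE 0.24). CTSD, the main aspartic protease of lysosomes, had an effect of 0.53 (SE 0.20, limma adjusted p = 0.0967). CTSA, a carboxypeptidase that also shields β-galactosidase and neuraminidase, had an effect of -0.11 (SE 0.28). CTSD shares 52.7% and CTSA 28.5% of its exon bases with other genes, so both levels are uncertain.

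The comparison of 20 with 10 uM PTUPB uses the same 20 uM libraries as that with 0. In it, 4 V1 genes rose (ATP6V1D, ATP6V1E1, ATP6V1G1 and ATP6V1H) and 0 fell of 9, while 0 V0 genes rose and 2 fell of 7 (ATP6V0A1 and ATP6V0E2). The neighbour gene ATP6V1FNB also fell, at 1.55, 2.41 and 0.475 FPKM with enzalutamide and 1.59, 2.74 and 1.13 FPKM without it. It passed the level filter only through its 0 and 10 uM libraries, so this fall is a description. With it counted, 4 of 17 ATP6V symbols rose and 3 fell, beside 16.5% of all genes that rose and 16.9% that fell. Medians were 0.65 for V1 and -0.51 for V0. Of 11 cathepsins 0 rose and 2 fell, CTSH (-1.67, SE 0.25, limma adjusted p = 0.00916) and CTSV (-1.06, SE 0.28, limma adjusted p = 0.0341), with a median of -0.74. ATP6V1E1 had the largest rise (1.18, SE 0.19, limma adjusted p = 0.011), and ATP6V0E2 fell by 1.51 (SE 0.18, limma adjusted p = 0.00547). Without the 10 uM PTUPB library the adjusted p was 0.0869 for ATP6V1D, 0.0717 for ATP6V1E1, 0.149 for ATP6V1G1, 0.0729 for ATP6V1H, 0.116 for ATP6V0A1, 0.146 for ATP6V1FNB, 0.0615 for CTSH and 0.227 for CTSV. Without the 10 uM combination it was 0.155, 0.0905, 0.392 and 0.0765 for those 4 V1 genes, 0.16 for ATP6V0A1, 0.197 for ATP6V1FNB and 0.0537 for CTSV. Without the 20 uM combination it was 0.0649 for ATP6V0A1, 0.0553 for ATP6V1FNB, 0.0965 for ATP6V1G1 and 0.0962 for CTSV, and without 20 uM PTUPB it was 0.0629 for CTSV. Leaving out the control or the enzalutamide library took it to 0.123 for ATP6V1G1 in each case and to 0.0723 and 0.0736 for ATP6V1FNB. ATP6V0E2 passed in all 6 such fits.

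With enzalutamide against without it, 0 of the 28 tested members were called in the additive fit, as were 0% of all genes (626 had an unadjusted p under 0.05). CTSD had the largest effect. It was at 22.8, 38.1 and 39.0 FPKM with enzalutamide and 18.3, 21.1 and 23.0 FPKM without it. Each library with enzalutamide was above its match, though the groups overlapped narrowly (0.62, SE 0.17, limma adjusted p = 0.92). With enzalutamide alone against control, 0 of 28 members differed by log2 1 or more, beside 2.69% of all genes. All 11 cathepsins were above 0 in that pair, with a median of 0.50, against 0.06 for the 17 pump symbols. Of all 12960 genes, 6384 were above 0 there. The largest were CTSH (1.96-fold higher), CTSF (1.90-fold), CTSL (1.73-fold) and CTSB (1.66-fold). With total fragments all 11 remained above 0, beside 3895 of the 12960 genes. With TPM, which moved the median of all genes in this pair to -0.41, 8 of 11 cathepsins were above 0. So were 1978 of the 12960 genes, and all 11 cathepsins were above the median of all genes.

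The difference between libraries with and without enzalutamide was then taken at each PTUPB dose. Its median over the 11 genes was 0.50 at 0 uM, 0.22 at 10 uM and -0.23 at 20 uM, and over the 17 pump symbols it was 0.06, -0.02 and 0.19. At 20 uM the only member that differed by log2 1 or more was CTSO, 7.21-fold lower with enzalutamide than without it on 14 against 130 fragments, beside 6.74% of all genes. At 10 uM it was ATP6V0C, 2.30-fold higher, beside 3.42% of all genes. The slope of the enzalutamide difference over dose was below 0 in 10 of 11 cathepsins, and in 9 of 9 cysteine cathepsins. Of all 12960 genes, 6152 had a slope below 0. No member passed: limma called 0% of all genes for this interaction, with 1219 at an unadjusted p under 0.05. Slopes are given per 10 uM of PTUPB, so they are not differences between 20 and 0 uM. The lowest p-values among members were those of ATP6V0A1 (-0.55, SE 0.16, limma adjusted p = 0.468), CTSF (-0.56, SE 0.17, 0.476), CTSA (-0.53, SE 0.17, 0.486) and CTSO (-0.69, SE 0.25, 0.52). The genes of a list share their libraries, so these signs are not separate observations. With 3 evenly spaced doses the slope is set by the pairs at 0 and 20 uM alone. It thus reuses the pair of enzalutamide alone against control, in which all 11 cathepsins were above 0. The signs of the slopes are therefore not a second result beside that pair.

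**Figure D5:**
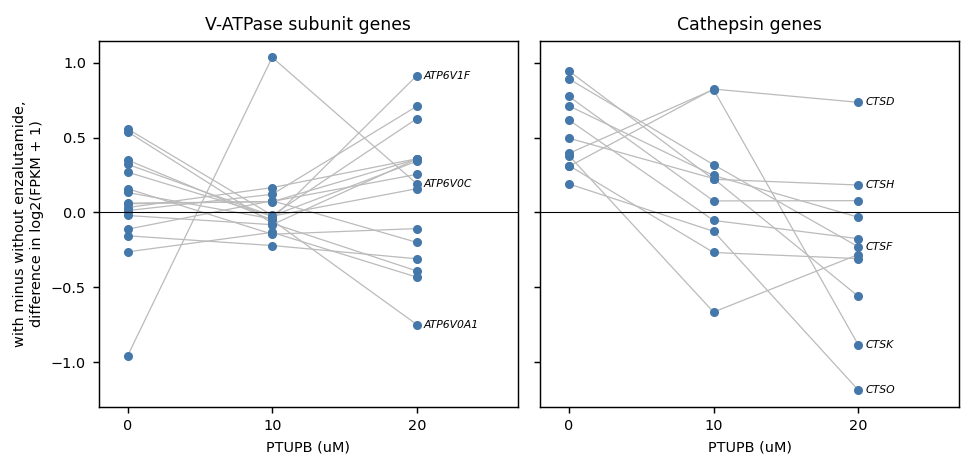
Difference in log2(FPKM + 1) between the library with enzalutamide and the library without it, at each PTUPB dose in uM, for 16 V-ATPase subunit genes (left) and 11 cathepsins (right); each line is a gene and each point a pair of single libraries. All 11 cathepsins lie above 0 without PTUPB, and 3 of 11 lie above 0 at 20 uM. Of all 12960 genes (not drawn), 6384 and 6883 were above 0 in those pairs.

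Pairs of single libraries give the same dose with and without enzalutamide. In the 20 uM combination against enzalutamide, 2 pump symbols were higher by log2 1 or more (ATP6V1D and ATP6V1H) and 3 were lower (ATP6V0A1, ATP6V0E1 and ATP6V0E2). That margin was passed upward by 13.5% and downward by 15.8% of all genes. Of 11 cathepsins 0 were higher and 7 lower in that pair, with a median of -1.12: CTSC, CTSF, CTSH, CTSK, CTSO, CTSV and CTSZ. The reference of that pair, enzalutamide alone, had all 11 cathepsins above control. Set against control, the same combination gave 2 cathepsins higher and 3 lower (median -0.50), beside 1813 and 1945 of all 12960 genes. With TPM it gave 0 higher and 5 lower (median -0.84), beside 1381 and 3442 of all genes. Against control, 20 uM PTUPB alone gave 0 pump symbols higher and 1 lower (ATP6V0E2), beside 9.47% and 12.7% of all genes, and 0 cathepsins higher and 2 lower (CTSH and CTSV), with a median of -0.05. Whether the effect of PTUPB differs with and without enzalutamide is what the interaction above tested, and it called no member. At 10 uM, 0 members differed by that margin from control, beside 2.39% of all genes. In the combination at 10 uM against enzalutamide, ATP6V0C was higher and CTSV lower, beside 3.81%.

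Summed over genes, cathepsins were at 381, 345 and 250.1 FPKM with enzalutamide and 234, 308 and 248 FPKM without it. Pump subunits were at 526, 479 and 724 FPKM with enzalutamide and 449.8, 483 and 523 FPKM without it. The pump to cathepsin ratio was thus 1.38, 1.39 and 2.90 with enzalutamide and 1.92, 1.57 and 2.11 without it. With enzalutamide the ratio was highest at 20 uM, and without it the values at 0 and 20 uM were close.

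Of 15 genes for further pump subunits, partners and assembly factors, 14 were tested, of which 1 rose and 2 fell at 20 against 0 uM, beside 15.9% of all genes that rose and 18.2% that fell. Besides TCIRG1, TBC1D24, a member of the TLDc domain family that binds the pump, fell (-1.41, SE 0.20, limma adjusted p = 0.00703). TBC1D24 was at 0.701 and 0.870 FPKM at 20 uM with and without enzalutamide, and at 3.10 to 3.83 FPKM elsewhere. It passed the level filter only through its 0 and 10 uM libraries, so this fall is a description. RNASEK, a small membrane protein found in the purified human pump, rose (1.20, SE 0.23, limma adjusted p = 0.0157), on at most 112 fragments. It was at 0.693, 1.35 and 3.41 FPKM with enzalutamide and 0.804, 1.12 and 2.63 FPKM without it. It passed the level filter only through its 20 uM libraries, so this rise is a description. NCOA7, another gene of that family, had an effect of 0.74 (SE 0.38) that did not pass. The accessory subunit genes ATP6AP1 and ATP6AP2 and the assembly factor gene VMA21 had effects of 0.44, -0.04 and -0.11, and none passed.

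Of 14 cathepsin inhibitor genes 3 were tested, and none passed at 20 against 0 uM. CST3, the secreted cystatin C, had an effect of 0.03 (SE 0.24), CSTB, a cytosolic stefin, 0.33 (SE 0.20) and CSTA 0.07 (SE 0.22). The other 11, serpins and further cystatins among them, were below 1 FPKM in every library.

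Other hydrolases of the lysosome and their activators were mixed: of 34 tested, 6 rose, 2 fell and 26 did not pass, with a median of -0.04, beside 15.9% of all genes that rose and 18.2% that fell. TPP1, a tripeptidyl peptidase, rose by 1.24 (SE 0.20, limma adjusted p = 0.0092). PSAP, the precursor of the saposins, rose by 1.18 (SE 0.30, limma adjusted p = 0.0308), with 1553 and 1520 FPKM at 20 uM with and without enzalutamide against 868 and 527 FPKM at 0. The neuraminidase gene NEU1 rose by 1.07 (SE 0.18, limma adjusted p = 0.0108). In the machinery that sorts enzymes to lysosomes 0 of 9 rose and 3 fell, beside those same 15.9% and 18.2%. GNPTAB, whose product begins the mannose 6-phosphate tag, fell by 1.77 (SE 0.33, limma adjusted p = 0.0144). The adaptor genes GGA2 and GGA1 fell by 0.70 (SE 0.17, limma adjusted p = 0.0282) and 0.62 (SE 0.16, limma adjusted p = 0.0327). IGF2R, the large mannose 6-phosphate receptor, had an effect of 0.40 (SE 0.22) that did not pass.

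Of 17 tested genes of the lysosomal membrane 2 rose and 3 fell, beside 15.9% and 18.2% of all genes. LAMP3 rose most (3.55, SE 0.54, limma adjusted p = 0.00832), at 1.00, 3.83 and 12 FPKM with enzalutamide and 0.359, 1.08 and 27.8 FPKM without it. The tetraspanin gene CD63 rose by 1.12 (SE 0.23, limma adjusted p = 0.0177), while LAPTM4B (-1.20, SE 0.24, limma adjusted p = 0.0166) and the transporter gene ABCA2 (-1.14, SE 0.18, limma adjusted p = 0.00975) fell. Of 12 genes that dock the growth kinase mTORC1 on lysosomes, which contacts the pump, 6 rose and 0 fell, with a median of 0.75, beside 15.9% and 18.2% of all genes. The largest were the GTPase genes RRAGC (1.77, SE 0.17, limma adjusted p = 0.00349) and RRAGD (1.51, SE 0.18, limma adjusted p = 0.00518). FLCN, which acts on those GTPases, rose by 0.87 (SE 0.22, limma adjusted p = 0.0308), and its partner FNIP1 by 0.84 (SE 0.16, limma adjusted p = 0.0138).

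Among the transcription factors of lysosomal genes, TFE3 was at 9.10, 10.9 and 26.2 FPKM with enzalutamide and 9.82, 9.91 and 20.1 FPKM without it. MITF was at 1.56, 1.61 and 7.32 FPKM with enzalutamide and 1.24, 1.25 and 4.04 FPKM without it. Both were highest in the 20 uM libraries and rose there against 0 uM (TFE3 1.20, SE 0.19, limma adjusted p = 0.00895, and MITF 1.44, SE 0.22, limma adjusted p = 0.00885). TFEB, at 1.48, 1.35 and 4.36 FPKM with enzalutamide and 1.83, 0.839 and 1.20 FPKM without it, did not pass (0.37, SE 0.38, limma adjusted p = 0.473). The repressor gene ZKSCAN3 did not pass (-0.13, SE 0.30), and TFEC and PPARGC1A were below 1 FPKM in every library. Of the 7 members with an E-box in the window, ATP6V0E2 fell and the other 6 did not pass at 20 against 0 uM. The windows of ATP6V0A2, ATP6V1D, ATP6V1E1, CTSC, CTSH and CTSV, which passed, held no such letters. ATP6V1H, which also passed, and ATP6V0D2 had no window. Whether these factors act on the members was not tested.

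The 11 members under the level filter were ATP6V0A4, ATP6V0D2, ATP6V1B1, ATP6V1C2, ATP6V1G2, ATP6V1G2-DDX39B, ATP6V1G3, CTSE, CTSG, CTSS and CTSW, of which 10 stayed below 1 FPKM in every library. ATP6V1G2-DDX39B, ATP6V1G3 and CTSG held 0 fragments in all 6. The kidney form ATP6V1B1 was at 0.0263, 0 and 0 FPKM with enzalutamide and 0.0249, 0 and 0 FPKM without it. ATP6V1C2 was at 0.224, 0.456 and 0.203 FPKM with enzalutamide and 0.154, 0.486 and 0.389 FPKM without it. The neuronal form ATP6V1G2 was at 0.429, 0.458 and 0.914 FPKM with enzalutamide and 0.374, 0.867 and 0.276 FPKM without it. ATP6V1B1 rested on 2 fragments in each library without PTUPB and 0 in the other 4, and for ATP6V1C2 and ATP6V1G2 the order of the doses differed between the series. CTSS, the protease of antigen-presenting cells, held 2 to 18 fragments, CTSW of cytotoxic lymphocytes at most 8, and the aspartic protease gene CTSE at most 1. In the fit without a filter ATP6V0D2 was the only 1 of them that passed.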

How the data were processed

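The series holds 1 table of FPKM per gene for 6 libraries. Per the submitters' processing notes, the authors used HISAT and Cufflinks, and deposited FPKM. The genome build and the strand setting are not given in the sources used here. All 58735 gene IDs matched GENCODE 29, whose union exon lengths gave back fragments as whole numbers (100% of values within 0.05). Intervals and floors (3 fragments) cover counting error only. Values were analysed as log2(FPKM + 1) for the 12960 genes with mean FPKM of at least 1. Under R 4.3.3, limma 3.58.1 (trended variance) fitted PTUPB (3 levels) plus enzalutamide, with 2 residual degrees of freedom, and then enzalutamide by linear dose, with 1. Tests were two-sided, and p-values were adjusted by Benjamini-Hochberg over all genes tested, with 0.05 as the threshold. Single-library pairs were counted at log2 1 or more. The fit was also run on simulated counts, with an equal PTUPB effect with and without enzalutamide. Those counts hold no departure from additive effects, so that run cannot check the calls made here. Python 3.11.15, numpy 2.4.6, pandas 2.3.3 and matplotlib 3.10.9 did the rest. Values in every library were given for the 8 pump genes and 7 cathepsins with the largest 20 uM effect and for isoform sets, and from each list for up to 4 genes. Exceptions to that rule were chosen after values were seen. The members and lists were chosen with earlier results of these data known. Alternatives were pseudocount 0.1, no filter, a mean of at least 5 FPKM, TPM, total fragments, limma-voom and each library left out. Of the lysosomal hydrolases, 1 result is not reported here.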

Additional observations from a re-analysis of the deposited data

How the results depend on the processing

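For 20 against 0 uM PTUPB, 4 pump symbols rose, and 2 did with no filter, ATP6V1H and ATP6V0D2, of which ATP6V0D2 was not among the 17 tested; leaving out each library gave 0 to 6. The 1 that fell became 2 with TPM, total fragments, limma-voom or a mean of at least 5 FPKM, and 0 to 2 over the left-out libraries. The 3 cathepsins that fell became 0 with no filter, 1 at 5 FPKM or more, and 0 to 6 over the left-out libraries. For 20 against 10 uM, 4 pump symbols rose, and 0 to 6 over the left-out libraries; 3 fell, 1 with no filter, and 1 to 4 over the left-out libraries. The 2 cathepsins that fell became 0 with no filter, 4 with total fragments, 5 with limma-voom and 0 to 7 over the left-out libraries, and TPM added 1 that rose, CTSL (0.75, limma adjusted p = 0.0265). The cause was not tested; with no filter 31321 genes were adjusted for, and a left-out library leaves 1 residual degree of freedom. Over all genes, 2064 rose and 2362 fell at 20 against 0 uM, but 544 and 657 with no filter, 434 and 698 without control, and 131 and 232 without enzalutamide. At 20 against 10 uM, TPM gave 2764 rises and 1905 falls in place of 2132 and 2193, and no filter gave 425 and 443. No called result changed direction under these alternatives. No paired analysis was possible because each treatment has 1 library and no replicate number to pair on; the model itself sets each PTUPB dose with enzalutamide beside the same dose without it. Depth limits members with few fragments, among them CTSK with 1 in the 20 uM combination, ATP6V0D2 with 0 to 5 below 20 uM, and CTSS, CTSW, CTSE, ATP6V0A4 and ATP6V1B1 throughout.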
